A study of Drosophila melanogaster with 2 samples.

Results

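The nuclear genes for the subunits of oxidative phosphorylation were examined for promoter binding of the CG30020 product in Drosophila melanogaster embryos. Members were the protein-coding genes whose symbol begins with ND-, COX, ATPsyn, UQCR or Cyt-c1, or is SdhA, SdhB, SdhC or SdhD, and 86 of the 13945 protein-coding genes on the main chromosome arms met this rule. They comprised 40 genes of complex I, 4 of complex II, 11 of complex III, 16 of complex IV and 15 of complex V. Of the 86, 22 carry the name of another subunit followed by L, in some cases with a digit, and are called duplicates here, while 64 do not.

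The study profiled the CG30020 product by chromatin immunoprecipitation and sequencing (ChIP-seq). All samples formed 1 group: transgenic flies of 1 line that stably carry CG30020 with GFP (eGFP in the sample descriptions) fused to its C-terminal end, precipitated with an antibody against GFP, as whole embryos of pooled sexes aged 0 to 24 h, with fragments of 200 to 800 bp. There were 2 biological replicates, numbered 2 and 3, and no second condition, so the values below describe this group only. Where the tagged protein is expressed is not given in the sources used here. Whole embryos of this age span mix many cell types and stages. The deposited peak lists were 1 list of 5048 peaks that passed an irreproducible discovery rate (IDR) threshold and relaxed lists of 30000 peaks each for the pooled reads, replicate 2 and replicate 3. A gene is called bound where the summit of an IDR peak fell no more than 500 bp from an annotated transcription start site (TSS) of that gene. Because the scale of the deposited signal is not stated, signals are expressed relative to the median IDR peak of their own list, and this ratio is called the multiple. No read counts were used, so depth is unknown.

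Oxidative phosphorylation takes place in the inner mitochondrial membrane. Complexes I and II pass electrons from NADH and succinate to ubiquinone, complex III passes them on to cytochrome c, complex IV reduces oxygen, and complex V, the ATP synthase, uses the resulting proton gradient to make ATP. All complexes but complex II combine nuclear subunits with subunits encoded in the mitochondrial genome. In Drosophila many nuclear subunit genes have a second copy elsewhere in the genome, and such copies are often expressed mainly in testis.

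The sequences under the strongest IDR summit of each complex are shown as a description, and the part of sequence in the signal was not tested. Each runs 5' to 3' along the strand of the subunit gene, 50 bp to each side of the summit, in the Release 6 (dm6) sequence, with capitals for any match to the promoter motifs described further on. The complex I window, at ND-49, is chr4:570811-570911 (minus strand). The complex II window, at SdhC, is chr3R:11209986-11210086 (minus strand). The complex III window, at UQCR-11, is chr3L:25120603-25120703 (plus strand). The complex IV window, at COX5A, is chr3R:11819475-11819575 (plus strand), where capitals mark TATAAA. The complex V window, at ATPsynbeta, is chr4:1030949-1031049 (plus strand), where capitals mark the same motif on the other strand.
ND-49: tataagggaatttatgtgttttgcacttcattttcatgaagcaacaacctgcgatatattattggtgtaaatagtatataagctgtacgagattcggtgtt
SdhC: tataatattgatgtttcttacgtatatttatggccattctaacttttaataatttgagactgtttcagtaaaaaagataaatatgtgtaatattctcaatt
UQCR-11: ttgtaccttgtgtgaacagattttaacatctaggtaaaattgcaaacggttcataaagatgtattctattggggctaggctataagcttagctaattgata
COX5A: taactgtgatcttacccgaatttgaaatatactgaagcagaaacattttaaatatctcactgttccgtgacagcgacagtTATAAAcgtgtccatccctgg
ATPsynbeta: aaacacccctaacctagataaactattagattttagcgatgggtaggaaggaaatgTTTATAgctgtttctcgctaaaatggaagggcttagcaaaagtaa

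A parent and its duplicate at the same kind of position are shown next, from 100 bp before to 20 bp after the 5' end of the gene model. ND-20L lies at chr3R:29515617-29515736 (plus strand) and its parent ND-20, whose summit was 92 bp upstream of the start, at chrX:15986789-15986908 (minus strand), where capitals mark a TATAAA match on the other strand. COX5BL lies at chr2L:6559331-6559450 (plus strand) and its parent COX5B at chr2L:6557700-6557819 (plus strand), where capitals mark GGTCACAC. Both duplicates lacked a summit in every list, and both parents had one in every list.
ND-20L: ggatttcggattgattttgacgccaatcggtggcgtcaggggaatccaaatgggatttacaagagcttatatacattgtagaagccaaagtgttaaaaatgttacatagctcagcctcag
ND-20: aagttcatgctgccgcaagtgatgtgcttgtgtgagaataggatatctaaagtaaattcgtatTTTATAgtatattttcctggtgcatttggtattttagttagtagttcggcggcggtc
COX5BL: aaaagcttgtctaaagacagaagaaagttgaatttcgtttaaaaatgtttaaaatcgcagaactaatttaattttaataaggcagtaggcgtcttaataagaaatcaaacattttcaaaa
COX5B: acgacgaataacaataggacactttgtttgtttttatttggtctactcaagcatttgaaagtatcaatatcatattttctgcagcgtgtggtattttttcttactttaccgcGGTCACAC

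Of the 86 members, 45 (52.3%) were bound, against 4284 of all protein-coding genes (30.7%). In the relaxed pooled list 63 members (73.3%) had a summit, against 46.3% of all protein-coding genes. In the list of replicate 2 it was 66 members (76.7%), against 49.4% of all, and in that of replicate 3 also 66 (76.7%), against 48% of all. Every list therefore held a larger share of the members than of all genes. The members were not spread evenly between subunits and duplicates: 0 of the 22 duplicates but 45 of the 64 other members (70.3%) were bound. In the pooled list, 3 of the 22 duplicates and 60 of the 64 other members had a summit. No enrichment test was made, since the members were chosen with earlier results of these data known, and the values are a description.

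Bound subunits occurred in all 5 complexes. When the duplicates were set aside, complex IV had a bound start at 8 of 8 genes, complex II at 3 of 4 (75%), complex III at 5 of 7 (71.4%), complex I at 22 of 34 (64.7%) and complex V at 7 of 11 (63.6%). With the duplicates counted, the shares were 55% in complex I, 75% in complex II, 45.5% in complex III, 50% in complex IV and 46.7% in complex V. The order of the complexes thus depended on whether the duplicates were counted, and complexes II and III have few genes. The plot of shares by complex gives all 4 lists.

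**Figure D1:**
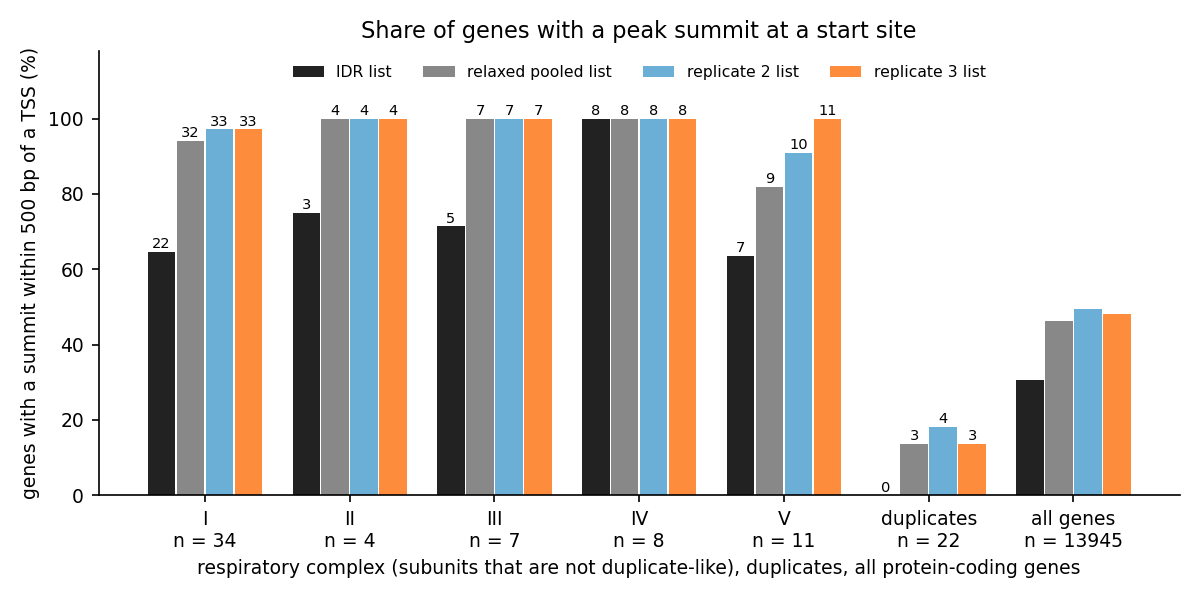
Share of genes with a summit within 500 bp of a TSS in the IDR list, the relaxed pooled list and each replicate list (vertical axis, percent), for the members of complexes I to V that are not duplicates, the 22 duplicates and all 13945 protein-coding genes (horizontal axis). Numbers over the bars are genes; complex IV reaches 8 of 8 in every list, and the duplicates stand at 0 in the IDR list and at 3, 4 and 3 in the pooled, replicate 2 and replicate 3 lists.

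The 19 subunit genes outside the IDR list that are not duplicates were all found in at least 1 replicate list. There were 12 of these in complex I, 1 in complex II, 2 in complex III and 4 in complex V. The 15 with a pooled summit had multiples of 0.174 to 0.486, with a median of 0.355, all below the weakest IDR peak, whose multiple was 0.528. Over all 2179 protein-coding genes found in the pooled list and not the IDR list, the median multiple was 0.283. ATPsynB, of the peripheral stalk of the ATP synthase, was found in the list of replicate 3 alone, at 0.615. ND-19, an accessory subunit of complex I, was found in that of replicate 2 alone, at 0.247. ATPsynE, a membrane subunit of the ATP synthase, had a multiple of 0.742 in replicate 2 and 0.767 in replicate 3, with summits 21 bp downstream and 4 bp upstream of its start, yet no pooled summit lay in its window. In contrast, 18 members were in none of the lists, and all 18 were duplicates. Of all protein-coding genes, 6223 (44.6%) were in none.

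Signal at most bound members was near that of a typical IDR peak, with a few very strong sites. The median multiple was 0.953 (interquartile range 0.782 to 1.75), against 1.13 (0.789 to 1.83) over all bound protein-coding genes, and 23 of the 45 (51.1%) lay below 1, against 41.3% of all bound genes. At the top, 7 of the 45 exceeded 10, against 209 of all 4284 bound genes (4.88%). By complex the median was 1.08 in I, 0.688 in II, 0.953 in III, 0.947 in IV and 1.14 in V. The complexes differed more in their strongest member, which reached 20.4 in I, 1.26 in II, 40.9 in III, 2.04 in IV and 11 in V.

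In complex I, 5 members exceeded 10. ND-49, a core subunit near the ubiquinone-binding site, had 20.4 in the pooled list, 25.6 in replicate 2 and 14.5 in replicate 3. ND-AGGG, an accessory subunit, had 20 in the pooled list, 31.1 in replicate 2 and 10.8 in replicate 3. ND-MLRQ, whose mammalian counterpart has been assigned to complex IV, had 16.1, with 20.5 in replicate 2 and 11.1 in replicate 3. All 3 were higher in replicate 2. The other 2 were closer between replicates. ND-20, a core subunit that carries the last iron-sulfur cluster before ubiquinone, had 13.2 in the pooled list, 12.1 in replicate 2 and 11.6 in replicate 3. ND-51, the subunit that binds FMN and accepts electrons from NADH, had 10.6 in the pooled list, 9.89 in replicate 2 and 9.26 in replicate 3. ND-75, another core subunit of the NADH-oxidising module, was not bound and had relaxed summits of 0.368 in the pooled list, 0.269 in replicate 2 and 0.412 in replicate 3. Strong sites were therefore found at some core subunits and not at others. The unbound members that come first by name, ND-13B and ND-15, both accessory subunits, had pooled multiples of 0.174 and 0.452.

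In complex II, whose subunits are all nuclear, SdhC, SdhA and SdhD were bound and SdhB was not. SdhC, a membrane anchor, had 1.26 in the pooled list, 1.08 in replicate 2 and 1.11 in replicate 3. SdhA, the flavoprotein that oxidises succinate, had 0.688, 0.382 in replicate 2 and 0.767 in replicate 3. SdhD, the other membrane anchor, had 0.662, 0.373 in replicate 2 and 0.697 in replicate 3. SdhA and SdhD were thus lower in replicate 2, by more than SdhC. SdhB, the iron-sulfur subunit, had relaxed summits of 0.355 in the pooled list, 0.263 in replicate 2 and 0.349 in replicate 3.

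In complex III, UQCR-11, an accessory subunit of the hinge protein family, had the highest multiple of all members: 40.9 in the pooled list, 59.9 in replicate 2 and 24.4 in replicate 3. Its IDR peak spanned 9931 bp. UQCR-14, a small accessory subunit, followed with 1.5 in the pooled list, 1.02 in replicate 2 and 1.55 in replicate 3. The core proteins were weaker and near each other, UQCR-C2 with 0.953 in the pooled list, 0.668 in replicate 2 and 0.926 in replicate 3, and UQCR-C1 with 0.782, 0.572 in replicate 2 and 0.752 in replicate 3. Cyt-c1, the haem protein that hands electrons to cytochrome c, had the lowest multiple of the bound members, 0.544, at a summit 456 bp upstream that lay nearest to Klp64D. UQCR-6.4 and UQCR-Q had relaxed summits only, with pooled multiples of 0.178 and 0.449.

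Complex IV held no strong site, and its 8 bound members lay between 0.557 and 2.04. COX5A had 2.04 in the pooled list, 2.1 in replicate 2 and 1.68 in replicate 3. COX8 had 1.66, with 1.49 in replicate 2 and 1.48 in replicate 3, and COX7B 1.33, with 1.09 in replicate 2 and 1.23 in replicate 3. These are nuclear subunits around the catalytic core, which is encoded in the mitochondrial genome. COX5B had 0.951 in the pooled list, 0.774 in replicate 2 and 0.907 in replicate 3, close to COX7C at 0.943, COX4 at 0.91 and COX7A at 0.891. COX6B was the weakest of the complex, at 0.557.

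In complex V, ATPsynbeta, the catalytic subunit, had 11 in the pooled list, 12.8 in replicate 2 and 6.83 in replicate 3. The pooled summit was 485 bp upstream and nearest to the divergent gene CG11076, as was that of replicate 2 at 497 bp. In replicate 3 the strongest summit was instead nearest to ATPsynbeta, 1 bp from a start, and 876 bp from that of replicate 2. A second IDR summit in the same peak, 44 bp upstream of an ATPsynbeta start, had 7.5, and the peak spanned 7901 bp. ATPsynC, which forms the rotating ring, had 3.96 in the pooled list, 3.78 in replicate 2 and 3.43 in replicate 3. ATPsynO, which links the peripheral stalk to the catalytic head, had 1.16, with 1.15 in replicate 2 and 1.06 in replicate 3, and the membrane subunit ATPsynG had 1.14, with 0.996 in replicate 2 and 1.06 in replicate 3. ATPsyngamma, the central stalk, had 0.883. ATPsynCF6, of the peripheral stalk, had 1.25 in replicate 2 and 0.534 in replicate 3, but at different summits: 152 bp upstream and nearest to Sec13 in replicate 2, and 2 bp downstream of its own start in replicate 3. ATPsynD and ATPsyndelta had relaxed summits only, at 0.486 and 0.327.

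**Figure D2:**
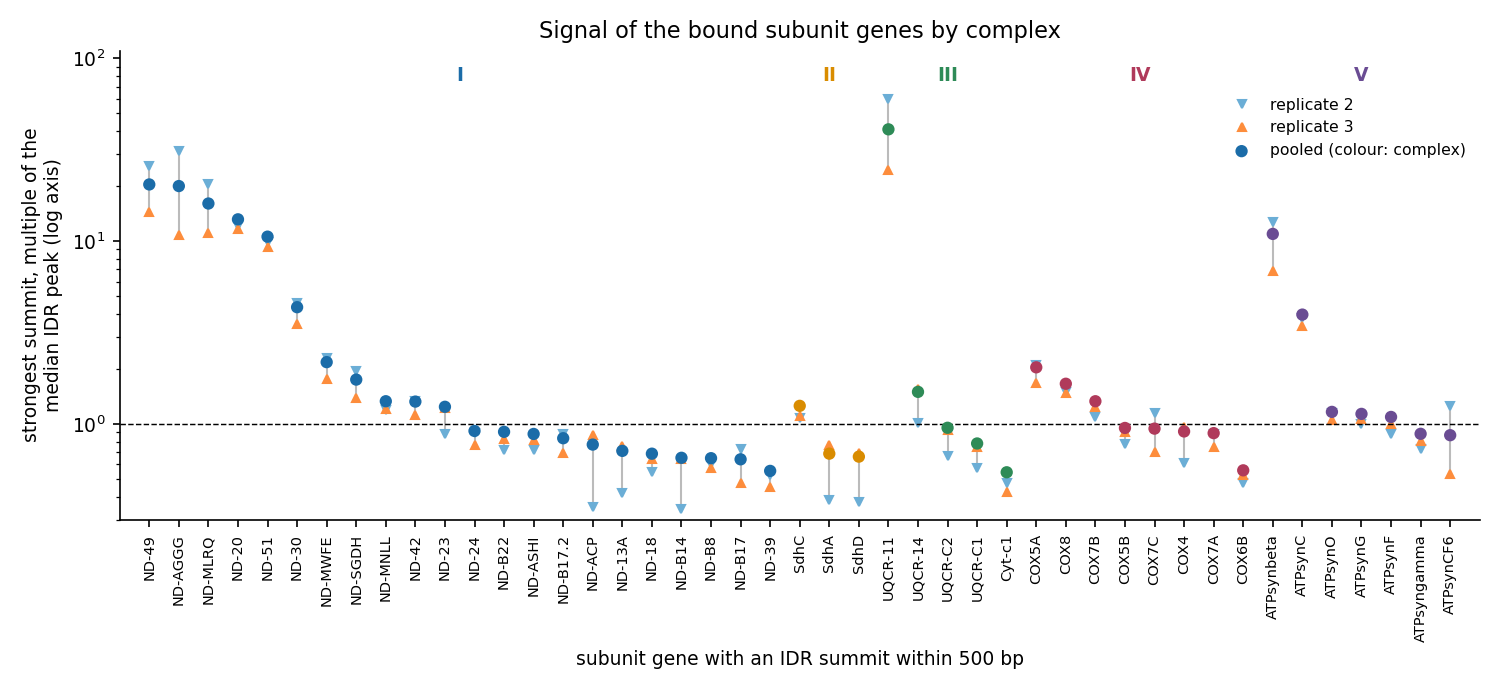
Strongest summit of each of the 45 bound members relative to the median IDR peak (vertical axis, log scale), ordered by complex and by pooled multiple (horizontal axis). Circles are the pooled list, coloured by complex, and triangles are replicates 2 and 3; 7 members stand above 10, and the dashed line marks the median IDR peak.

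Across the 45 bound members the multiple in replicate 3 over that in replicate 2 had a median log2 ratio of -0.06 with an SD of 0.61, and ranged from -1.53 to 1.3. Replicate 3 was higher at 21 of the 45. Replicate 2 was higher at 7 of the 7 members above 10, and replicate 3 at 14 of the 23 below 1. The same counts were not made over all bound genes, so this pattern is not shown to be particular to the members. The highest multiple of any peak was 97.2 in replicate 2 and 75.5 in replicate 3. Among the 7, the log2 ratio was close to even at ND-20 (-0.06) and ND-51 (-0.09). These ratios compare the strongest summit of each replicate, which was not always at the same place. The strongest summits of the replicates lay a median of 21 bp apart, and at most 50 bp apart at 35 members.

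Several of the strongest members lay near other strongly bound genes, though for some only 1 or 2 other genes were within 100 kb. Both other genes within 100 kb of UQCR-11 were bound, with a median multiple of 39.3. ND-49 and ATPsynbeta lie on chromosome 4, where 2 of 2 members and 62 of 80 protein-coding genes (77.5%) were bound, and 12 of 15 other genes within 100 kb of each were bound, with medians of 8.89 and 16. Near ND-20, 17 of 28 other genes were bound, with a median of 8.11. The single other gene within 100 kb of ND-MLRQ had 24.1, and that near ND-AGGG had 3.99. ND-51 differed, since 16 of 46 others were bound with a median of 1.26. So did ND-30, near which 19 of 44 others were bound with a median of 1.08. Near ATPsynC 3 of 25 others were bound with a median of 0.625. UQCR-11, ND-20 and ATPsynbeta lie in 100-kb bins in which IDR peaks cover at least 10% of the bases. In such bins 263 of 335 protein-coding genes (78.5%) were bound. The bins were defined by the same IDR peaks, those of the members included, so a high bound share in them is built in. The duplicate COX4L lies in such a bin too, and it had no summit in any list. Outside such bins 42 of 82 members (51.2%) were bound, against 29.5% of all genes.

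Taken over all complexes, bound members had their summits close to the start. The strongest summit lay a median of 71 bp upstream of the nearest start of the member, against 116 bp for all bound genes, and it was upstream at 38 of the 45 (84.4%, against 90.2%). It was within 100 bp at 26 of the 45 (57.8%), against 41.8% of all bound genes. By complex the median offset was -76.5 bp in I, -122 in II, -56 in III, -61.5 in IV and -150 in V. Complexes II and V, with 3 and 7 bound members, thus lay farther upstream than all bound genes. Their shares within 100 bp were 33.3% and 28.6%. At 33 of the 45 (73.3%) the nearest annotated start was the member's own, against 67.5% of all bound genes. Ties were counted as the member's own. ND-MNLL tied with CG45089 and COX6B with CG18809, so position alone does not assign these summits to the subunit gene.

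At the other 12 bound members the strongest summit lay nearest to another gene. ND-30, a core subunit of complex I, had its summit of 4.35 at 353 bp upstream, nearest to CG15812, with 4.57 in replicate 2 and 3.54 in replicate 3. ND-MWFE, an accessory subunit, had 2.18 at 178 bp upstream, nearest to TppII. The neighbours of the remaining members were Cchl for ND-42, Secp43 for ND-B8, Klp64D for Cyt-c1, IFT52 for COX5B, Arl2 for COX7A, oys for COX7C, VhaM9.7-b for COX8, Sec13 for ATPsynCF6, SCAR for ATPsynG and CG11076 for ATPsynbeta. COX5B and ATPsynbeta had a further summit nearest to their own start. Where each summit was counted for its nearest start only, 35 members (40.7%) remained bound, against 22.3% of all protein-coding genes.

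**Figure D3:**
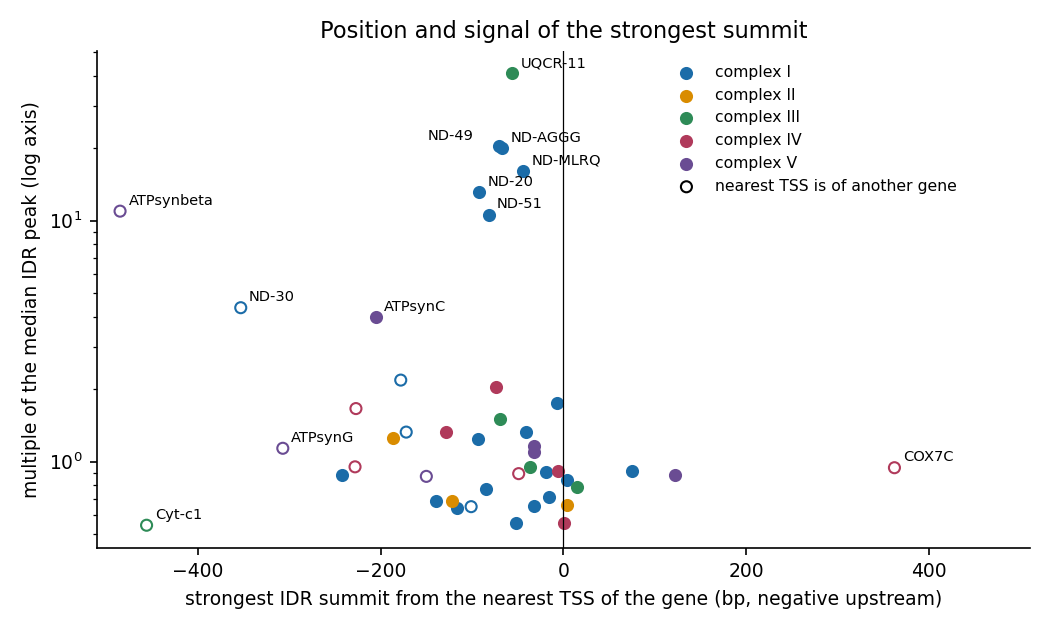
Distance of the strongest IDR summit from the nearest start of each of the 45 bound members (horizontal axis, bp, negative upstream) against its multiple of the median IDR peak (vertical axis, log scale), coloured by complex. Open circles mark the 12 members whose summit lies nearest to the start of another gene; the members above 10 other than ATPsynbeta lie within 100 bp upstream.

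Shared promoters were common among the members. An opposite-strand start lay within 500 bp upstream at 39 of the 86 members (45.3%), against 29.6% of all protein-coding genes, and 27 of these 39 (69.2%) were bound, against 61.3% of all such genes. Among the 47 without such a neighbour 18 (38.3%) were bound, against 17.8%. For members that are not duplicates the shares were 27 of 36 (75%) with and 18 of 28 (64.3%) without a divergent neighbour. Some neighbours also act in mitochondria. ND-ASHI, an accessory subunit of complex I, and Fum1, a fumarase of the tricarboxylic acid cycle, shared 1 IDR summit of 0.882, which lay at -242 bp from the nearest ND-ASHI start and at -280 bp from the nearest Fum1 start, upstream of both. ND-42 and Cchl, a cytochrome c haem lyase, have starts 229 bp apart and shared a summit of 1.33. ND-B16.6 and kdn, the citrate synthase, have starts 228 bp apart and shared a relaxed pooled summit of 0.316, outside the IDR list. ATPsynD and mRpL55, a mitochondrial ribosomal protein, shared one of 0.486. In these pairs a shared summit cannot be assigned to either gene from position alone. ND-ASHI also had a further IDR summit of 0.652, 18 bp downstream of a start of its own and nearest to ND-ASHI.

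Duplicates had fewer summits than their parents in every list. The 22 duplicates have 19 parents, 16 of them members and the others levy, cype and sun, which encode subunits of complexes IV and V. Of the duplicates 0 of 22 were bound, and of the parents 17 of 19. In the relaxed pooled list it was 3 of 22 duplicates and 19 of 19 parents. The unbound parents were ND-B14.5A and UQCR-6.4. Protein identity of the pairs ranged from 30.1% to 85.6% with a median of 51.4%, so unbound duplicates included close copies: UQCR-14L, 85.6% identical to UQCR-14, and UQCR-11L, 78.8% identical to UQCR-11, had no summit in any list.

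The windows set this count closely for a few genes. The nearest IDR summit was 506 bp from COX7AL2 and 507 bp from COX4L, just outside the 500 bp limit, and 711 bp from Cyt-c1L and 993 bp from UQCR-6.4L. The members just inside the limit were Cyt-c1 at 456 bp and COX7C at 362 bp. For the duplicates as a group the median distance was 8400.5 bp, with 13 beyond 5000 bp and a maximum of 127365 bp. An unbound gene is more than 500 bp from an IDR summit by definition. The 19 unbound members that are not duplicates ranged from 741 bp at ATPsynE to 93984 bp at ND-75. The distances were not computed over all genes, so they are not shown to be particular to duplicates. COX7AL2 had relaxed summits within its window of 0.426 in the pooled list, 0.522 in replicate 2 and 0.279 in replicate 3, and COX7AL of 0.368, 0.328 and 0.28 in the same lists. ND-B14.5AL had 0.0708 in the pooled list, 0.0762 in replicate 2 and 0.0634 in replicate 3, while UQCR-6.4L had 0.113 in replicate 2 alone. All 4 were below the weakest IDR peak.

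Several duplicates lie beside their parents. COX5BL begins 122 bp past the end of the COX5B gene and had no summit in any list, while COX5B had 0.951 in the pooled list. The gap between COX7CL and COX7C is 281 bp, and COX7CL had none, while COX7C had 0.943. COX7AL and COX7A are 2625 bp apart, with 0.368 and 0.891 in the pooled list. In total 6 pairs are on the same chromosome arm, and in the other 16 the copy is elsewhere.

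**Figure D4:**
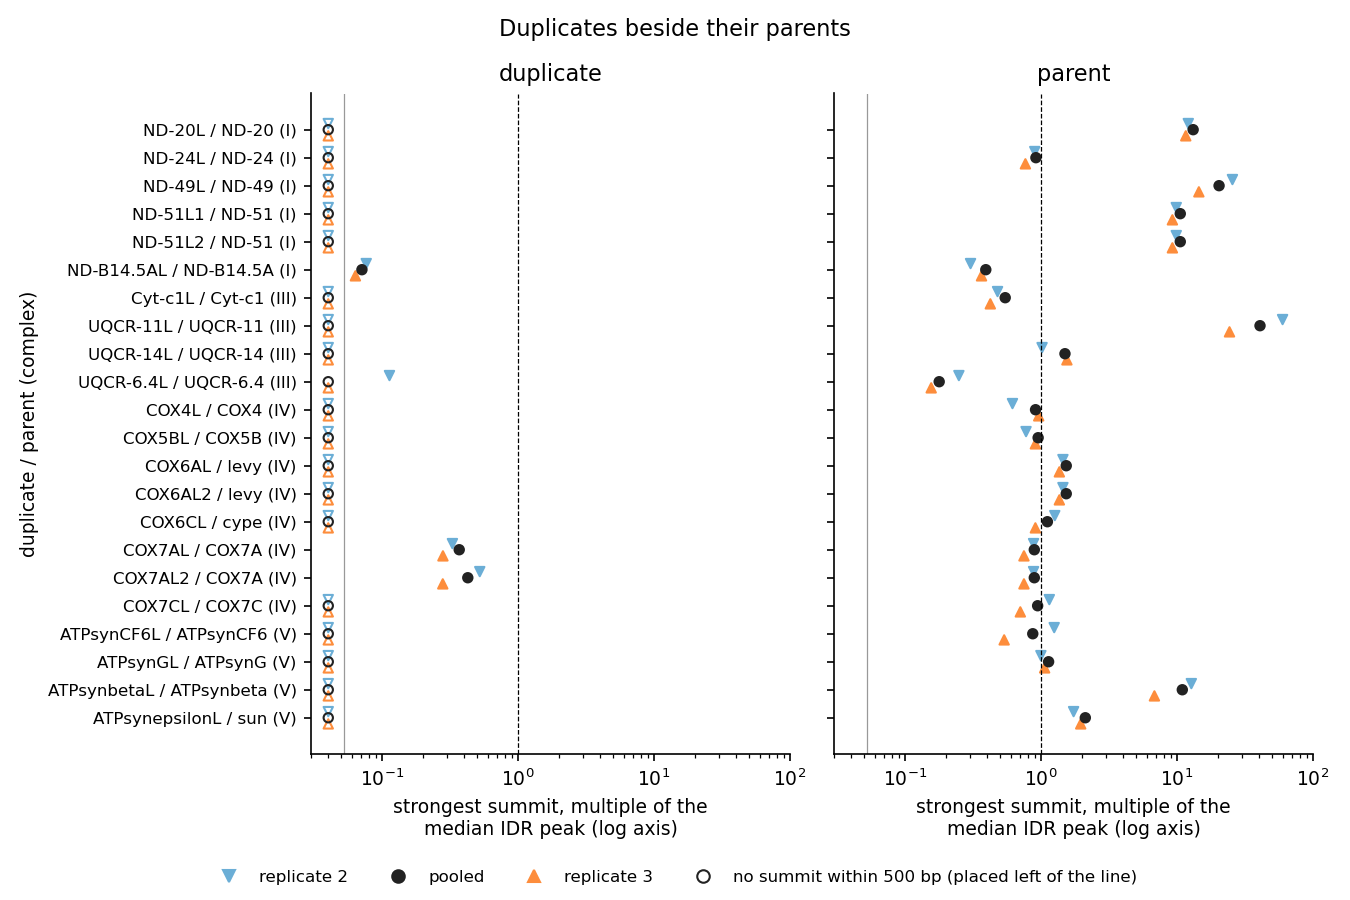
Strongest summit within 500 bp for each of the 22 duplicates (left panel) and its parent (right panel), relative to the median IDR peak (horizontal axis, log scale), in the pooled list (circles) and replicates 2 and 3 (triangles). Open symbols left of the grey line mark genes with no summit in that list; 18 duplicates have open symbols in all lists, and every parent has filled ones.

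The promoters of duplicates and subunits also differed in layout. A divergent neighbour was found at 3 of the 22 duplicates and 10 of the 19 parents. Of the duplicates, 17 have 1 annotated start and no divergent neighbour, a class in which 0 of 17 duplicates, 10 of 16 other members (62.5%) and 1051 of 7437 protein-coding genes (14.1%) were bound. The share of that class among all genes was thus lower than over all genes, and the part of promoter layout in the result for duplicates was not tested. The duplicate-like gene CG40472, whose synonym is ND-AGGGL and whose symbol the rule does not take, was bound with a multiple of 3.99 at 24 bp upstream. This gene and ND-AGGG both lie on 3L. Its multiple equals the one given above for the single other gene within 100 kb of ND-AGGG. CG40472 was 1 of 5 further subunit genes looked at after the values were seen, of which 1 (20%) was bound. SdhCL, also a duplicate by name, had no summit in any list, and the others, which are not duplicates by name, had relaxed summits only, among them NdufA3 at 0.306 and NdufV3 at 0.216 in the pooled list.

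Motif letters were counted in the window of 300 bp from 250 bp before to 50 bp after the 5' end of each gene model, on both strands. The promoter motif GGTCACAC (Ohler motif 1 core) was present at 1 of the 22 duplicates (4.55%) and at 15 of the 64 other members (23.4%), against 15% of all bound genes and 7.7% of all protein-coding genes. The DNA replication-related element TATCGATA was present at 0 of the 22 and 9 of the 64 (14.1%), against 18.9% of bound and 9.36% of all genes. TATAAA was present at 6 of the 22 (27.3%) and 40 of the 64 (62.5%), against 49.1% of bound and 45.8% of all genes. GAGAG was present at 8 of the 22 (36.4%) and 11 of the 64 (17.2%), against 29.7% of all. CAGCTG was present at 1 of the 22 (4.55%) and 19 of the 64 (29.7%), against 17.7% of all. Among the 64 it was present at 10 of the 45 bound (22.2%) and 9 of the 19 unbound members (47.4%), and at 20.9% of all bound genes. CACGTG was present at 2 of the 22 and 2 of the 64, against 4.2% of all. The NRG element, a palindrome described at nuclear mitochondrial genes, was present at 0 of the 86, against 0.387% of all. The windows of duplicates had a median GC content of 35%, those of bound members 34.7% and those of all genes 38%.

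Motifs directly under the summits were few. In the 101 bp around the strongest summit, TATAAA was found at 9 of the 45 bound members (20%), against 22.9% of all IDR summits within 500 bp of a start. CAGCTG was found at 8 (17.8%), against 4.25%, and TATCGATA at 1 (2.22%), against 7.1%. GGTCACAC was found at 2 (4.44%), against 3.84%. The NRG element was found at 1 (2.22%), against 0.219%. That window was at Cyt-c1, whose summit lay 456 bp upstream and nearest to Klp64D. A match is a description of the letters and does not show a bound site.

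Binding was also counted at other genes of the pathway. Of 11 matched subunits and carriers whose symbols the rule does not take, 7 were bound (63.6%), with a median multiple of 1.37. Bound among them were blw, the alpha subunit of the ATP synthase, at 1.37, sun, its epsilon subunit, at 2.12, and Cyt-c-p, the somatic cytochrome c, at 0.925. The second cytochrome c gene, Cyt-c-d, was bound too, with 2 in the pooled list, 1.5 in replicate 2 and 1.97 in replicate 3, at a summit nearest to CG31808. The duplicates SdhAL and SdhBL had no summit in any list. Of 18 matched assembly factors 10 were bound (55.6%, median 1.38), led by Nubpl, an iron-sulfur factor of complex I, at 35.4, with 42.8 in replicate 2 and 25.9 in replicate 3. Of 25 matched genes listed by symbol for the tricarboxylic acid cycle and pyruvate dehydrogenase 12 were bound (48%, median 0.874). Among them was muc, a pyruvate dehydrogenase subunit, at 5.85. That list also holds Mdh1, Idh and Pdk. These lists too were read beside the 30.7% over all protein-coding genes, with no test. None of the peak lists held a peak on the mitochondrial genome, so the mitochondrial subunits were not analysed here.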

How the data were processed

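The authors deposited peak lists on dm6 for replicates 2 and 3, the pooled reads and an IDR-thresholded set, called against 1 control alignment that was not analysed here, per the labels and the notes deposited with them. The caller is not given in the sources used here. The deposited signal value has no stated scale, and the deposited −log10 q value was 4.23 at all IDR peaks, so it ranked nothing. Summits are the deposited offset from the peak start.

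Signals of the IDR and pooled lists were divided by the median of the IDR peaks. Those of a replicate were divided by the median of its strongest summits within 250 bp of the IDR summits. Starts came from Ensembl release 115 without transposable elements, and sequence from the Release 6 assembly. Protein identity was computed from the longest annotated coding sequence, since no protein table was given. Global alignment used BLOSUM62 and gap costs of 11 and 1, with gaps at the ends free (Biopython 1.88). Identity was taken over the residues aligned in both proteins, so unaligned ends did not count. Counts and medians were set beside the same over all protein-coding genes of the chromosome arms X, 2L, 2R, 3L, 3R and 4. No test was made, as there is 1 group. The script that assigns summits to genes was tested on simulated data. Members, gene lists and comparisons were chosen with earlier results of these data known. Genes were named by rule: all of complex II, up to 4 of the strongest bound and 3 of the unbound members of each complex, duplicates with their parents, members in 1 replicate list only and those with a summit nearest to another gene, and others to fill a group. Of 13 asked subunits and carriers 2, and of 29 assembly factors 10, had no match in the annotation. For the tricarboxylic acid cycle and pyruvate dehydrogenase it was 3 of 30. Alternatives were another window, peak overlap, the nearest start only, the gene's 5' end only, stronger peaks and leaving out each replicate.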

Additional observations from a re-analysis of the deposited data

How the results depend on the processing

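Over all alternative settings, 86 recomputed values moved by less than the set limits and 31 by more. Keeping only the stronger IDR peaks left 22 bound members (25.6%, against 18% of all genes). With duplicates counted, these were 11 in complex I (27.5%), 1 in II (25%), 2 in III (18.2%), 3 in IV (18.8%) and 5 in V (33.3%). Complexes III and IV were thus near the share of all genes at this setting. All 22 were among the members that are not duplicates, of which they made up 34.4%. Counting a summit for its nearest start only left 5 in complex IV (31.2%, against 22.3% of all genes). Bound duplicates numbered 0 as reported and 4 with a window of 1000 bp (18.2%, against 32.9% of all genes). With peak overlap in place of the summit they numbered 2 (9.09%, against 31.8%). Where every symbol that ends in L was counted it was 1 of 19 (5.26%, against 30.7%), that 1 being ND-MNLL, no duplicate. Summing over summits gave median multiples of 1.14 for all bound members, 1.28 for complex I and 1.14 for complex IV. Without heavily covered bins, an alternative chosen after seeing the data, the median of complex I was 0.916. Each replicate was also left out in turn. Without replicate 2 there were 46 bound members (53.5%, against 30.8% of all genes). Without replicate 3 there were 41 (47.7%, against 29.8%). Complex II then had 3 bound members (75%) without replicate 2 and 1 (25%) without replicate 3. Duplicates had 0 without replicate 2 and 1 (4.55%) without replicate 3, which was COX7AL2. The median multiple then ranged from 0.897 to 0.96 over all bound members, 0.891 to 0.995 in complex I, 0.382 to 0.767 in II, 0.668 to 0.926 in III, 0.933 to 0.986 in IV and 1.06 to 1.15 in V. The median offset ranged from -67 to -66 bp over all, -72.5 to -67 in complex I, -63 to -37 in III, -48.5 to -34.5 in IV and -152 to -1 in V. The cause of these shifts was not tested. No paired analysis was possible because the labels give 1 group only. The depth of the libraries is unknown from peak lists, so a gene without a summit was not detected at this depth and is not shown to be unbound. The tagged protein came from 1 line, and peaks of the same tag or antibody in other samples were not analysed here.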
